A study of Danio rerio with 16 samples.

Results

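The collagen genes of larval zebrafish were examined for their response to chronic cortisol, to loss of the transcription factor gene *klf9*, and to the day on which the RNA was prepared. Members were all genes of the deposited expression table whose symbol has the form of a collagen chain gene (*col*, the type number, *a* and the chain number). Of 57 such genes, 56 averaged 5 or more normalized counts over the 16 samples and were kept, among 21511 genes that passed the same limit. The gene left out was *col10a1* (ENSDARG00000101535), with 0 to 10 normalized counts per sample. The 56 comprised 15 genes of fibrillar collagens, 12 of fibril-associated collagens (FACIT), 6 of the type IV network of basement membranes, 4 of short-chain networks, 3 of multiplexins, 4 of transmembrane collagens, and 12 of the beaded-filament, anchoring-fibril and type XXVIII collagens.

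Collagens are the main structural proteins of the extracellular matrix, built from chains that wind around each other in a long helix before they are secreted and assembled. Fibrillar types I and V form the fibrils of skin, bone and tendon, whereas types II, IX and XI together form the thinner fibrils of cartilage and, in fish, also belong to the sheath of the notochord. Type IV chains build the sheet beneath epithelia, type VI forms beaded filaments around cells, and types VII and XVII tie the epidermis to the tissue below it. In mammals, glucocorticoids such as cortisol are known to reduce collagen synthesis in skin and bone. Klf9 is a DNA-binding protein of the Krüppel-like family whose gene is activated by glucocorticoid receptors.

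RNA-seq was carried out on 16 samples of 10 whole larvae each at 5 days post fertilization (dpf), with 4 samples in each of 4 conditions. These were *klf9*-/- larvae with 1 µM cortisol, *klf9*-/- larvae with vehicle (DMSO), wild-type (WT) larvae with 1 µM cortisol, and WT larvae with vehicle, all of the AB strain and kept in cycles of light and dark. The *klf9*-/- larvae were homozygous for a frameshift allele that traces back to 1 founder female, and the WT larvae descended from homozygous WT siblings of the mutants. Each condition was raised in 1 dish, so p-values measure the spread between samples of that dish. Day 1 of RNA preparation took replicates 1 and 2 of each condition, and the 8 frozen samples waited in lysis buffer until their homogenization began. Day 2 took replicates 3 and 4, with homogenization right after buffer was added to a sample. Per the study, replicates 3 and 4 were also the later samples in the order of collection. The 2 days thus differ in replicate numbers, in collection order and in handling, which cannot be told apart.

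The values are normalized counts on a scale forced to be the same in all samples, with a sum of 14653434 in each, so sequencing depth is unknown and only differences between samples, never between genes, are compared. At the top of that scale the values come in steps. Between 10000 and 50000 normalized counts there were 15 levels (values within 0.1% taken as 1 level). These were 5.04% to 29.0% apart, each shared by a median of 10 genes. Values of *col1a1* (ENSDARG00000035809), *col1a1a*, *col1a2*, *col2a1* (ENSDARG00000069093) and *col11a1* (ENSDARG00000026165) lie largely between 10000 and 50000. The other genes of types II and XI stay below 10000. Per-sample values below are given in the order of replicates 1 to 4, so that the first pair is from day 1 and the second pair from day 2. Differences are on the log2 scale of normalized counts plus 0.1, with standard errors (SE) from limma, and genes were called at a Benjamini-Hochberg adjusted p under 0.05 over all 21511 genes. The mutated gene itself had 106, 134, 136 and 111 normalized counts in cortisol-treated *klf9*-/- samples, 135, 78, 100 and 111 in vehicle-treated *klf9*-/- samples, 330, 511, 354 and 340 in cortisol-treated WT samples, and 274, 250, 243 and 165 in vehicle-treated WT samples. All *klf9*-/- samples were thus below all WT samples, and in WT larvae all cortisol samples were above all vehicle samples, whereas in *klf9*-/- larvae the treatments overlapped. FKBP5, a glucocorticoid target, did not separate the treatments in either genotype (0.26 ± 0.41 in *klf9*-/- and 0.61 ± 0.41 in WT larvae), so the cortisol labels have no such check in *klf9*-/- larvae. The first principal component (58.3% of the variance of 8884 genes) placed the day 1 cortisol samples at one end, at 85.6 and 92.3 for *klf9*-/- and at 119 and 122 for WT larvae, the day 1 vehicle samples between -20.7 and 45.2, and all 8 day 2 samples between -80.3 and -26.1. Results by day are therefore also given for the cortisol and genotype comparisons, with estimates by day for some genes only.

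Chronic cortisol lowered 9 of the 56 collagen genes in WT larvae and raised none by limma. Of the 56, 21 had an unadjusted p under 0.05, next to 7090 of all 21511 genes. Of all genes tested, 3.99% were called lower and 4.66% higher. The estimates lay below 0 for 43 of the 56 collagen genes, with a median log2 difference of -0.19, against a median of -0.03 over all genes tested. Genes of the cartilage fibril, types II, IX and XI, made up 6 of the 9 called genes: these 9 genes of types II, IX and XI had a median difference of -0.42 with 8 of 9 below 0, and the other 47 collagen genes a median of -0.14 with 35 of 47 below 0. That grouping was made after the values were seen, so it was not tested. In whole larvae, fewer cells of a type and less RNA per cell cannot be told apart.

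Among the genes of cartilage fibrils, *col9a1b*, a chain of type IX collagen, which coats type II fibrils, had 2526, 3014, 8350 and 6814 normalized counts with cortisol and 8350, 6194, 12084 and 10699 with vehicle in WT larvae. The day 1 cortisol samples were lowest by a wide margin, and the day 2 cortisol samples lay among or below the vehicle samples. The difference was -0.99 ± 0.15 (SE, n = 4 each, adjusted p = 0.0019), or 0.505 times the vehicle level. *col2a1* (ENSDARG00000069093), which encodes the chain of type II collagen, had 8734, 8356, 26492 and 23442 normalized counts with cortisol and 23442, 23442, 29419 and 26492 with vehicle. Here the day 2 samples of both treatments met at 26492, and the day 1 cortisol samples were far below all others. The difference was -0.81 ± 0.23 (adjusted p = 0.044). The other gene with the symbol *col2a1* (ENSDARG00000011407) had 4300, 4380, 4202 and 4202 with cortisol and 4538, 6194, 5304 and 4958 with vehicle. Its groups did not overlap, but the difference of -0.29 ± 0.11 was not called (adjusted p = 0.086).

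Type XI chains, which regulate the width of cartilage fibrils, were lower as a group. *col11a1* (ENSDARG00000026165) had 7040, 7467, 14044 and 12084 normalized counts in cortisol-treated WT samples and 14044, 15577, 18160 and 15577 in vehicle-treated WT samples, a difference of -0.70 ± 0.14 (adjusted p = 0.014). Its groups touched at 14044, a value shared by a day 2 cortisol sample and a day 1 vehicle sample. *col11a1b* had 1633, 1699, 2042 and 2374 with cortisol and 3176, 3561, 2312 and 2574 with vehicle (-0.58 ± 0.17, adjusted p = 0.048), and *col11a2* had 2312, 2312, 3368 and 3368 with cortisol and 3440, 3231, 4382 and 3948 with vehicle (-0.42 ± 0.10, adjusted p = 0.028). In each of them the lowest values were those of day 1 with cortisol. The remaining type IX chains moved less. *col9a2* had 3440, 3561, 3862 and 3561 with cortisol and 3862, 4382, 4540 and 4382 with vehicle (-0.25 ± 0.07, adjusted p = 0.039), and each cortisol sample was below the vehicle sample of its number. *col9a1* (ENSDARG00000073699) had 1991, 1682, 830 and 795 with cortisol and 1159, 1682, 864 and 826 with vehicle, and its estimate of 0.17 ± 0.14 was the only one above 0 among the type II, IX and XI genes (adjusted p = 0.43).

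Type I collagen, the main protein of skin and bone matrix, gave 1 called gene of 3. *col1a1* (ENSDARG00000035809) had 14050, 14050, 29419 and 23442 normalized counts with cortisol and 29419, 47665, 37956 and 37956 with vehicle in WT larvae (-0.97 ± 0.22, adjusted p = 0.019). Both day 1 cortisol samples were below every vehicle sample, and a day 2 cortisol sample equalled the lowest vehicle sample. *col1a1a* had 18166, 14834, 29419 and 29419 with cortisol and 37956, 37956, 26492 and 29419 with vehicle (-0.57 ± 0.28, adjusted p = 0.17). *col1a2*, the second chain of type I collagen, had 6366, 7471, 13030 and 14050 with cortisol and 13030, 18166, 14834 and 12088 with vehicle (-0.57 ± 0.20, adjusted p = 0.070). For *col1a1a* and *col1a2* the day 2 samples of both treatments overlapped, and for *col1a1* (ENSDARG00000035809) they did not. *col5a1*, a chain of the type V collagen that nucleates type I fibrils, had 3366, 3366, 4538 and 4654 with cortisol and 6194, 5090, 4538 and 5515 with vehicle (-0.43 ± 0.14, adjusted p = 0.064).

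The other called genes came from outside the fibrils. *col8a1a*, a short-chain collagen of vessel walls and the cornea in mammals, had 412, 450, 474 and 430 normalized counts with cortisol and 576, 674, 612 and 493 with vehicle in WT larvae (-0.41 ± 0.09, adjusted p = 0.021). Its groups did not overlap. *col18a1b*, a multiplexin of the kind that carries endostatin at its end, had 151, 130, 128 and 119 with cortisol and 180, 192, 152 and 152 with vehicle (-0.35 ± 0.11, adjusted p = 0.0496). These groups did not overlap either, with 151 the highest cortisol value. In all, 5 of 56 collagen genes had all 4 cortisol values below all 4 vehicle values, as did 2.48% of all genes tested.

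**Figure D1:**
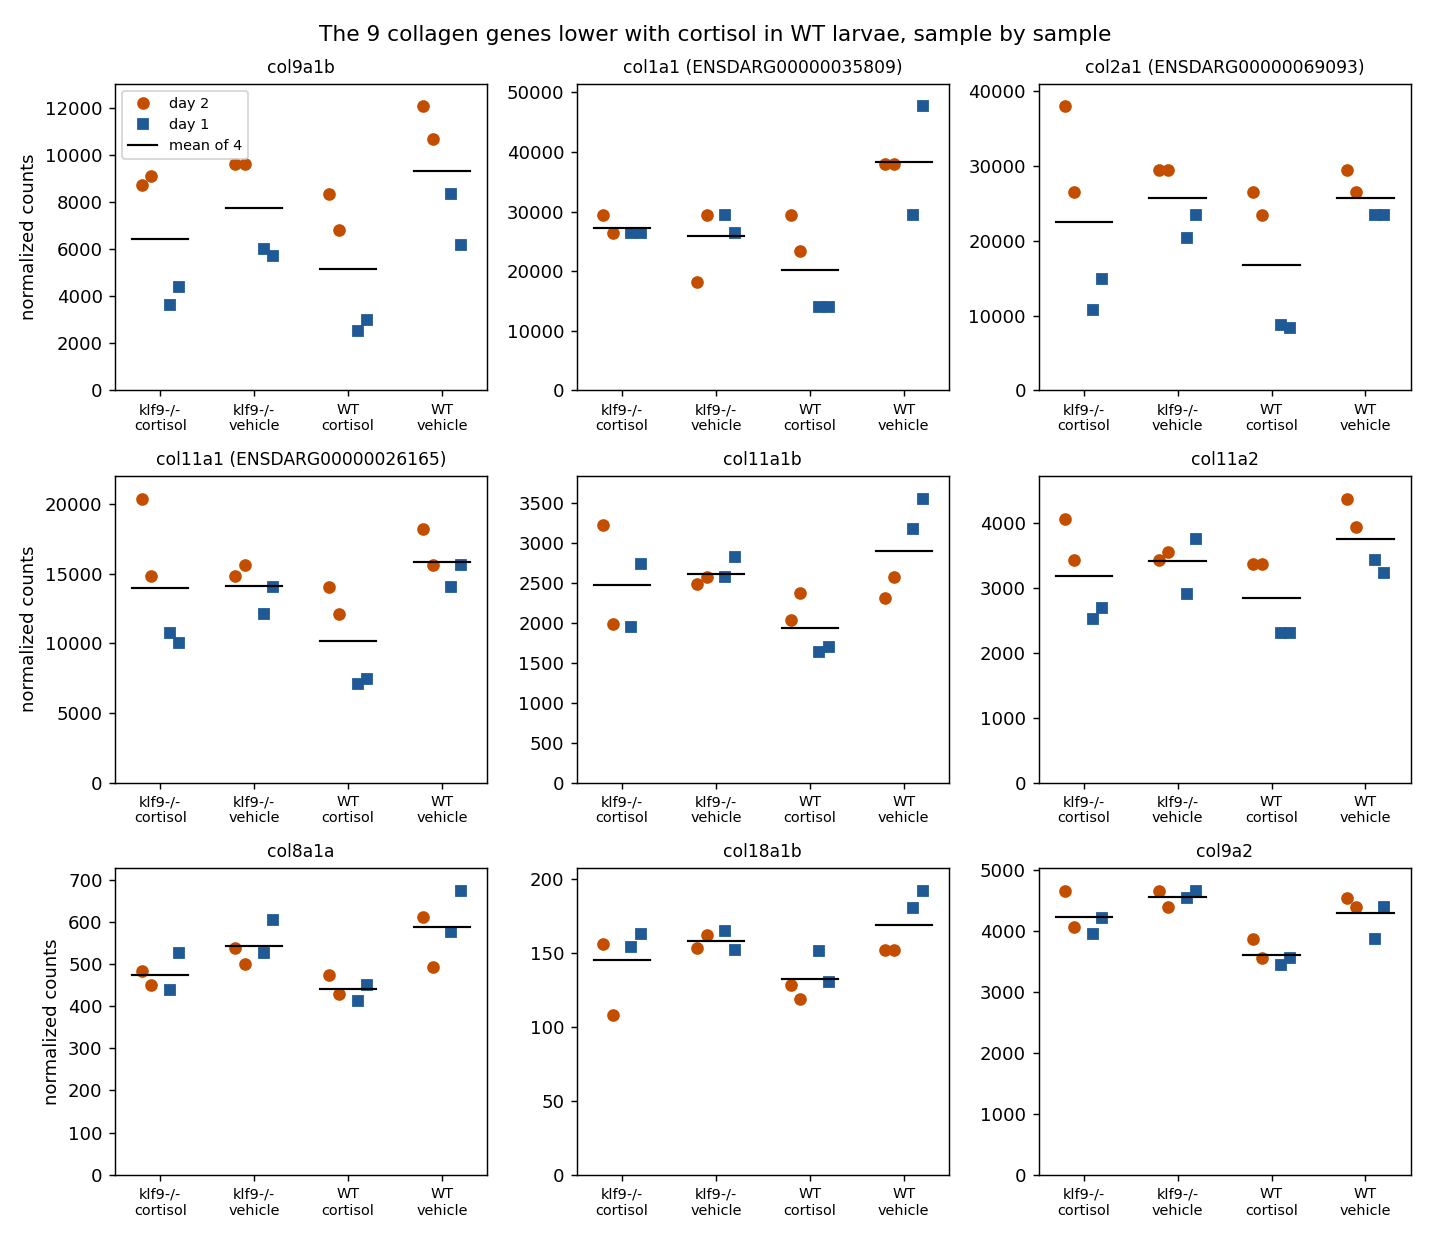
Normalized counts (vertical axes, from 0) of the 9 collagen genes called lower with cortisol in WT larvae, in each of the 16 samples. Points are samples (circles, day 2; squares, day 1) and bars are means of 4; in WT larvae with cortisol, the day 1 samples of *col9a1b* (2526 and 3014) and *col2a1* (8734 and 8356) lie far below those of day 2, whereas *col8a1a* and *col9a2* differ little between days.

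Basement membrane collagens did not pass the test in WT larvae. *col4a1* had 494, 513, 518 and 562 normalized counts with cortisol and 664, 680, 442 and 494 with vehicle (-0.10 ± 0.12), and *col4a2* had 556, 521, 450 and 492 with cortisol and 585, 572, 398 and 436 with vehicle (0.04 ± 0.09). Cortisol samples of both genes were below vehicle samples on day 1 and above them on day 2. *col4a5* had 3068, 2958, 3176 and 2958 with cortisol and 3306, 4129, 3368 and 3368 with vehicle (-0.22 ± 0.09, adjusted p = 0.12), without overlap, and *col4a6* had 2450, 2280, 2612 and 2408 with cortisol and 2692, 3304, 2793 and 2572 with vehicle (-0.22 ± 0.12, adjusted p = 0.21). The remaining type IV pair, *col4a3* and *col4a4*, was low throughout, with 18 to 87 normalized counts over all 16 samples.

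Collagens that link cells and epidermis to the matrix were likewise not called in WT larvae. Of the type VI chains, *col6a1* had 1430, 1506, 1347 and 1333 normalized counts with cortisol and 1948, 1884, 912 and 1014 with vehicle (0.05 ± 0.18), *col6a2* had 1632, 1747, 1212 and 1367 against 2310, 2408, 1266 and 1332 (-0.25 ± 0.17), and *col6a3* had 885, 980, 726 and 797 against 1002, 1072, 750 and 772 (-0.08 ± 0.10). For these 3 genes cortisol samples were below vehicle samples on day 1, and on day 2 they were above them for *col6a1* and overlapped with them for *col6a2* and *col6a3*. *col6a4a* differed on day 1, with 826 and 768 with cortisol and 610 and 740 with vehicle. *col7a1*, the anchoring fibril collagen, had 435, 477, 513 and 464 with cortisol and 383, 544, 804 and 639 with vehicle (-0.28 ± 0.15), and *col17a1a*, the transmembrane collagen of hemidesmosomes, had 3368, 3862, 3561 and 3306 against 3068, 4203, 4129 and 3626 (-0.08 ± 0.11). Both overlapped between treatments. *col18a1a* had 2312, 2281, 2042 and 2016 with cortisol and 2067, 2528, 1992 and 1820 with vehicle (0.05 ± 0.11), and *col27a1b*, a fibrillar collagen of the growing skeleton, had 38, 51, 34 and 35 against 40, 38, 51 and 44 (-0.14 ± 0.15).

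Other collagens had wide errors or small estimates. *col10a1* (ENSDARG00000054753), known from hypertrophic cartilage in mammals and from bone-forming cells in zebrafish, had 3368, 1842, 802 and 808 normalized counts with cortisol and 1575, 2832, 610 and 508 with vehicle in WT larvae (0.39 ± 0.43, adjusted p = 0.56). Within day 1, samples of the same treatment differed almost as much as samples of different treatments. The paralogs with the symbol *col12a1*, fibril-associated collagens of tendon and fascia, had 1164, 1196, 1107 and 1164 against 996, 1504, 1174 and 984 (ENSDARG00000019601, 0.01 ± 0.15) and 1896, 1967, 1786 and 1991 against 2612, 2831, 1862 and 1862 (ENSDARG00000078322, -0.24 ± 0.14). The type XXVIII genes ran from -0.51 ± 0.37 for *col28a1b* to 0.54 ± 0.23 for *col28a2a*, and none of the 4 was called.

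The count in WT larvae depended on single samples: it was 1 without cortisol-treated WT replicate 1 or without replicate 2, 3 without vehicle-treated WT replicate 2, and 0 with both day 1 cortisol-treated WT samples left out. It was also 0 without the term for preparation day and 2 when only the 8 WT samples were fitted. *col9a1b* remained called whichever single sample was left out (largest adjusted p = 0.010), whereas the other 8 genes lost the call in 2 to 13 of the 16 fits.

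Separated by day, collagen genes passed the test in WT larvae on day 1 alone, while estimates below 0 were in the majority on both days (37 of 56 on day 2 and 41 of 56 on day 1, next to 57.7% and 53.0% of all genes). On day 2 no collagen gene was called in WT larvae in either direction, while of all genes 1.46% were called higher and 0.0465% lower. The unadjusted p was under 0.05 for 10 collagen genes on that day, next to 2410 of all 21511 genes. On day 1, 19 collagen genes were called (33.9%, next to 39.5% of all genes in either direction), 17 of them lower (30.4%, next to 21.6% of all genes called lower). The other 2 were higher (3.57%), next to 3871 of all 21511 genes called higher. The median difference was -0.12 on day 2 and -0.26 on day 1. The lower genes of day 1 covered all 3 type I genes, with *col1a1* (ENSDARG00000035809) at -1.41 ± 0.22, *col1a1a* at -1.21 ± 0.29 and *col1a2* at -1.16 ± 0.18, next to *col2a1* (ENSDARG00000069093) at -1.46 ± 0.17 and *col9a1b* at -1.38 ± 0.15. The 2 genes higher on day 1 were *col7a1l* (ENSDARG00000069692, 0.49 ± 0.17, adjusted p = 0.038), with 209 and 220 normalized counts with cortisol and 130 and 180 with vehicle, and *col24a1* (0.32 ± 0.11, adjusted p = 0.037), with 134 and 132 against 102 and 112.

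The 9 genes called over both days had estimates below 0 on each day. On day 2 the estimates ranged from -0.59 for *col9a1b* (adjusted p = 0.074) to -0.15, and on day 1 from -1.46 to -0.23, with 8 of the 9 called. These genes were chosen on the same samples, so nothing is read from their direction on each day or from the day 1 calls. Whether the cortisol effect itself differed between days was tested for each gene. In WT larvae the effect on day 2 minus that on day 1 was called above 0 for 7 collagen genes and below 0 for 1, against 8.31% and 7.83% of all genes. The share called in either direction, 14.3%, was near the 16.1% of all genes. The 7 were *col2a1* (ENSDARG00000069093, 1.29 ± 0.24), *col1a2* (1.17 ± 0.26), *col11a1b* (0.87 ± 0.27), *col9a1b* (0.79 ± 0.21), *col11a1* (0.66 ± 0.20), *col6a4b* (0.66 ± 0.20) and *col4a1* (0.62 ± 0.17), with adjusted p from 0.0065 to 0.046. The gene below 0 was *col7a1l* (ENSDARG00000069692, -0.81 ± 0.24, adjusted p = 0.040).
These counts moved with single samples. The 7 became 2 without cortisol-treated WT replicate 1, 3 or 4 or vehicle-treated WT replicate 3, 3 without cortisol-treated WT replicate 2 or vehicle-treated WT replicate 1 or 4, and 11 without cortisol-treated *klf9*-/- replicate 3 or 4. The 1 below 0 became 0 without cortisol-treated *klf9*-/- replicate 1 or 2, cortisol-treated WT replicate 2, 3 or 4, or vehicle-treated WT replicate 1 or 3, and 6 and 2 without vehicle-treated WT replicate 2 and replicate 4.

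**Figure D2:**
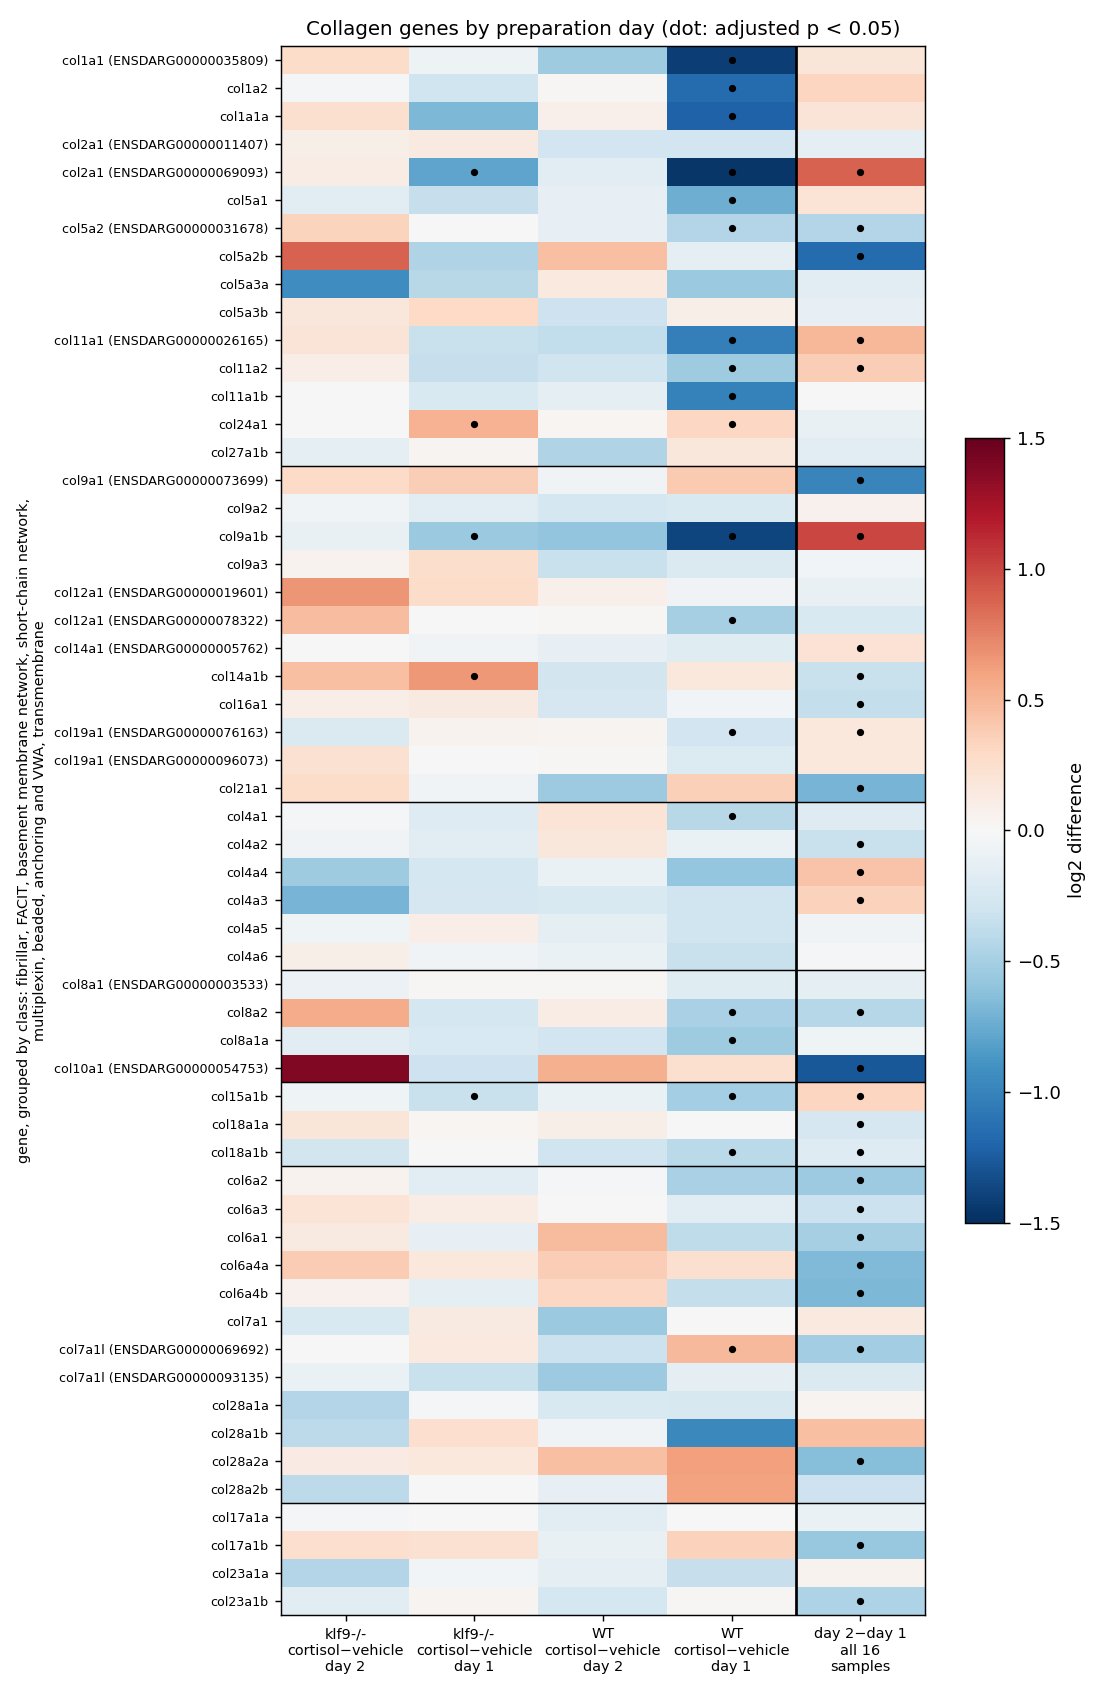
Log2 differences of the 56 collagen genes (colour scale, -1.5 to 1.5), with genes grouped by class from top to bottom. The first 4 columns give cortisol minus vehicle within a genotype and day and the last gives day 2 minus day 1 over all 16 samples; dots mark adjusted p under 0.05, with 0 dots for WT larvae on day 2 and 19 for WT larvae on day 1.

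Markers of neurons, basal epidermis and erythrocytes moved with the day 1 result, on a day when 39.5% of all genes were called with cortisol in WT larvae. Of 9 genes of neurons, 8 were called lower with cortisol in WT larvae on day 1 (median -0.88) and none on day 2 (median -0.12), and their summed level in WT larvae was 34386 to 36107 normalized counts with cortisol against 36087 to 39607 with vehicle on day 2, and 12487 to 13141 with cortisol against 19136 to 27704 with vehicle on day 1. Macrophage genes differed on day 2 as well: of 13 genes, 9 were higher with cortisol in WT larvae over both days (median 1.57). Their summed level was 1430 to 1716 with cortisol against 670 to 816 with vehicle on day 2, and 2934 to 3237 against 864 to 1330 on day 1. Of 9 basal epidermis genes, 5 were called higher on day 1 and none on day 2 (1 with an unadjusted p under 0.05), with summed levels in WT larvae of 86001 to 86043 with cortisol against 75936 to 112424 with vehicle on day 2, and 176600 to 177018 against 77860 to 98966 on day 1. In *klf9*-/- larvae the day 1 sums of these genes were 174898 to 175929 with cortisol and 107982 to 121901 with vehicle. Of 6 erythrocyte genes, 3 were called higher and 1 lower on day 1 and none on day 2 (0 with an unadjusted p under 0.05), with sums of 8216 to 9390 against 7227 to 11428 on day 2 and 16588 to 17435 against 7248 to 11348 on day 1. Sums of the 12 muscle genes in WT larvae were 353457 to 379171 with cortisol against 319549 to 330323 with vehicle on day 1. On day 2 they were 318201 to 319261 against 319848 to 344946. In *klf9*-/- larvae the day 1 muscle sums overlapped, at 290347 to 323535 against 323364 to 324399. None of the neuron, epidermis, erythrocyte and muscle genes was at 0 in any sample, and 1 of the macrophage genes was. Their part in the collagen result was not tested. Other genes of cartilage did not move in a body with types II, IX and XI: of 13 chondrocyte genes, 2 were called lower and none higher, with a median of 0.00. The 2 were *hapln1a* (-0.44 ± 0.12), which links aggrecan to hyaluronan, and SOX9 (ENSDARG00000003293, -0.36 ± 0.10), the factor that drives type II collagen transcription. Of 4 notochord genes, 1 was called lower, *cmn* (-0.65 ± 0.13), which encodes a protein of the notochord sheath. In WT larvae the chondrocyte sums were 8966 to 9126 with cortisol against 10733 to 11944 with vehicle on day 2. On day 1 they overlapped, at 12241 to 12569 against 10772 to 13195. The notochord sums were lower with cortisol on both days, at 2697 to 2992 against 3295 to 3773 on day 2 and 1665 to 1788 against 2756 to 2896 on day 1. The part of both lists in the collagen result was not tested.

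Of the lists of genes that make, turn over or bind collagen, only that of degradation held called genes with cortisol in WT larvae over both days. Cortisol effects by day are not given for these lists. None of 25 genes for folding and secretion (median -0.04), none of 25 for processing and crosslinking (median -0.09), none of 25 for other basement membrane proteins (median 0.04) and none of 14 for collagen receptors (median 0.12) was called by limma. Of 16 genes of degradation and its inhibitors, 2 were called higher and none lower, next to 4.66% and 3.99% of all genes. The 2 were MMP9 (1.44 ± 0.22), a gelatinase made by macrophages and neutrophils among others, and TIMP4 (0.67 ± 0.18), an inhibitor of metalloproteinases. Of the fibroblast and tendon genes, 1 of 17 was called, TNMD (-0.33 ± 0.09), which encodes the tendon protein tenomodulin.

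In *klf9*-/- larvae, cortisol raised 1 collagen gene and lowered none, against 2.31% and 2.48% of all genes tested. Of the 56, 8 had an unadjusted p under 0.05, next to 6030 of all 21511 genes. The median difference was -0.03, and 25 of the 56 estimates were above 0. The called gene was *col14a1b*, a fibril-associated collagen of tendon and dermis, with 1862, 1682, 1421 and 1132 normalized counts with cortisol and 1099, 1154, 797 and 1086 with vehicle in *klf9*-/- larvae. All cortisol samples of a number were above the vehicle sample of that number, but the day 2 cortisol value of 1132 lay inside the vehicle range. The difference was 0.55 ± 0.14 (adjusted p = 0.040), and with 1421, 1430, 1025 and 975 against 1033, 1592, 1304 and 1117 in WT larvae the estimate there was -0.06 ± 0.14.

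The 9 genes called in WT larvae were not called in *klf9*-/- larvae, where their estimates ran from -0.34 to 0.10 with 8 of 9 below 0. *col9a1b* had 3625, 4380, 8730 and 9118 normalized counts with cortisol and 6003, 5729, 9630 and 9630 with vehicle in *klf9*-/- larvae, so that each cortisol value lay below the vehicle values of its day (-0.33 ± 0.15, adjusted p = 0.17). *col2a1* (ENSDARG00000069093) had 10704, 14834, 37956 and 26492 with cortisol and 20392, 23442, 29419 and 29419 with vehicle (-0.34 ± 0.23). For it, cortisol samples were below vehicle samples on day 1 and on either side of them on day 2. *col1a1* (ENSDARG00000035809) had 26492, 26492, 29419 and 26492 with cortisol and 29419, 26492, 18166 and 29419 with vehicle (0.10 ± 0.22), and *col11a1* had 10699, 9993, 20382 and 14830 against 12084, 14044, 14830 and 15577 (-0.07 ± 0.14). Neither separated the treatments over all 4 samples, but on day 1 both cortisol values of *col11a1* were below both vehicle values.

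The other 5 genes called in WT larvae overlapped between treatments in *klf9*-/- larvae. *col11a2* had 2528, 2694, 4064 and 3440 normalized counts with cortisol and 2906, 3754, 3440 and 3561 with vehicle (-0.12 ± 0.10), and *col11a1b* had 1948, 2736, 3231 and 1992 against 2574, 2832, 2488 and 2574 (-0.11 ± 0.17). *col8a1a* had 439, 526, 483 and 450 against 526, 604, 537 and 500 (-0.19 ± 0.09), *col9a2* had 3948, 4203, 4656 and 4064 against 4540, 4656, 4656 and 4382 (-0.11 ± 0.07), and *col18a1b* had 154, 163, 156 and 108 against 165, 152, 153 and 162 (-0.14 ± 0.11). No adjusted p among these 5 was under 0.05. Within day 1, both cortisol values were below both vehicle values for *col11a2* and *col9a2*, and not for *col11a1b*, *col8a1a* and *col18a1b*. Of all 9 genes called in WT larvae, 8 had estimates below 0 on day 1 in *klf9*-/- larvae. By limma, 4 of the 9 had an unadjusted p under 0.05 on that day and 2 were called lower. On day 2, 4 of the 9 were below 0 and 5 above.

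By day, *klf9*-/- larvae had no called collagen gene on day 2, next to 0.711% of all genes called higher and 0.107% lower. The unadjusted p was under 0.05 for 11 collagen genes on that day, next to 3907 of all 21511 genes. On day 1, 2 were called higher and 3 lower, next to 6.85% and 9.47% of all genes. The lower genes were *col2a1* (ENSDARG00000069093, -0.80 ± 0.17), *col9a1b* (-0.56 ± 0.15) and *col15a1b* (-0.34 ± 0.10), a multiplexin of basement membrane zones, and the higher were *col14a1b* (0.65 ± 0.18) and *col24a1* (0.52 ± 0.11). Each of these, apart from *col14a1b*, had been called in the same direction in WT larvae on day 1. No collagen gene had a called difference between the days of its cortisol effect in *klf9*-/- larvae. Of all genes, 0.139% were called above 0 and 0.0279% below. For this difference 9 collagen genes had an unadjusted p under 0.05, next to 3221 of all 21511 genes.

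**Figure D3:**
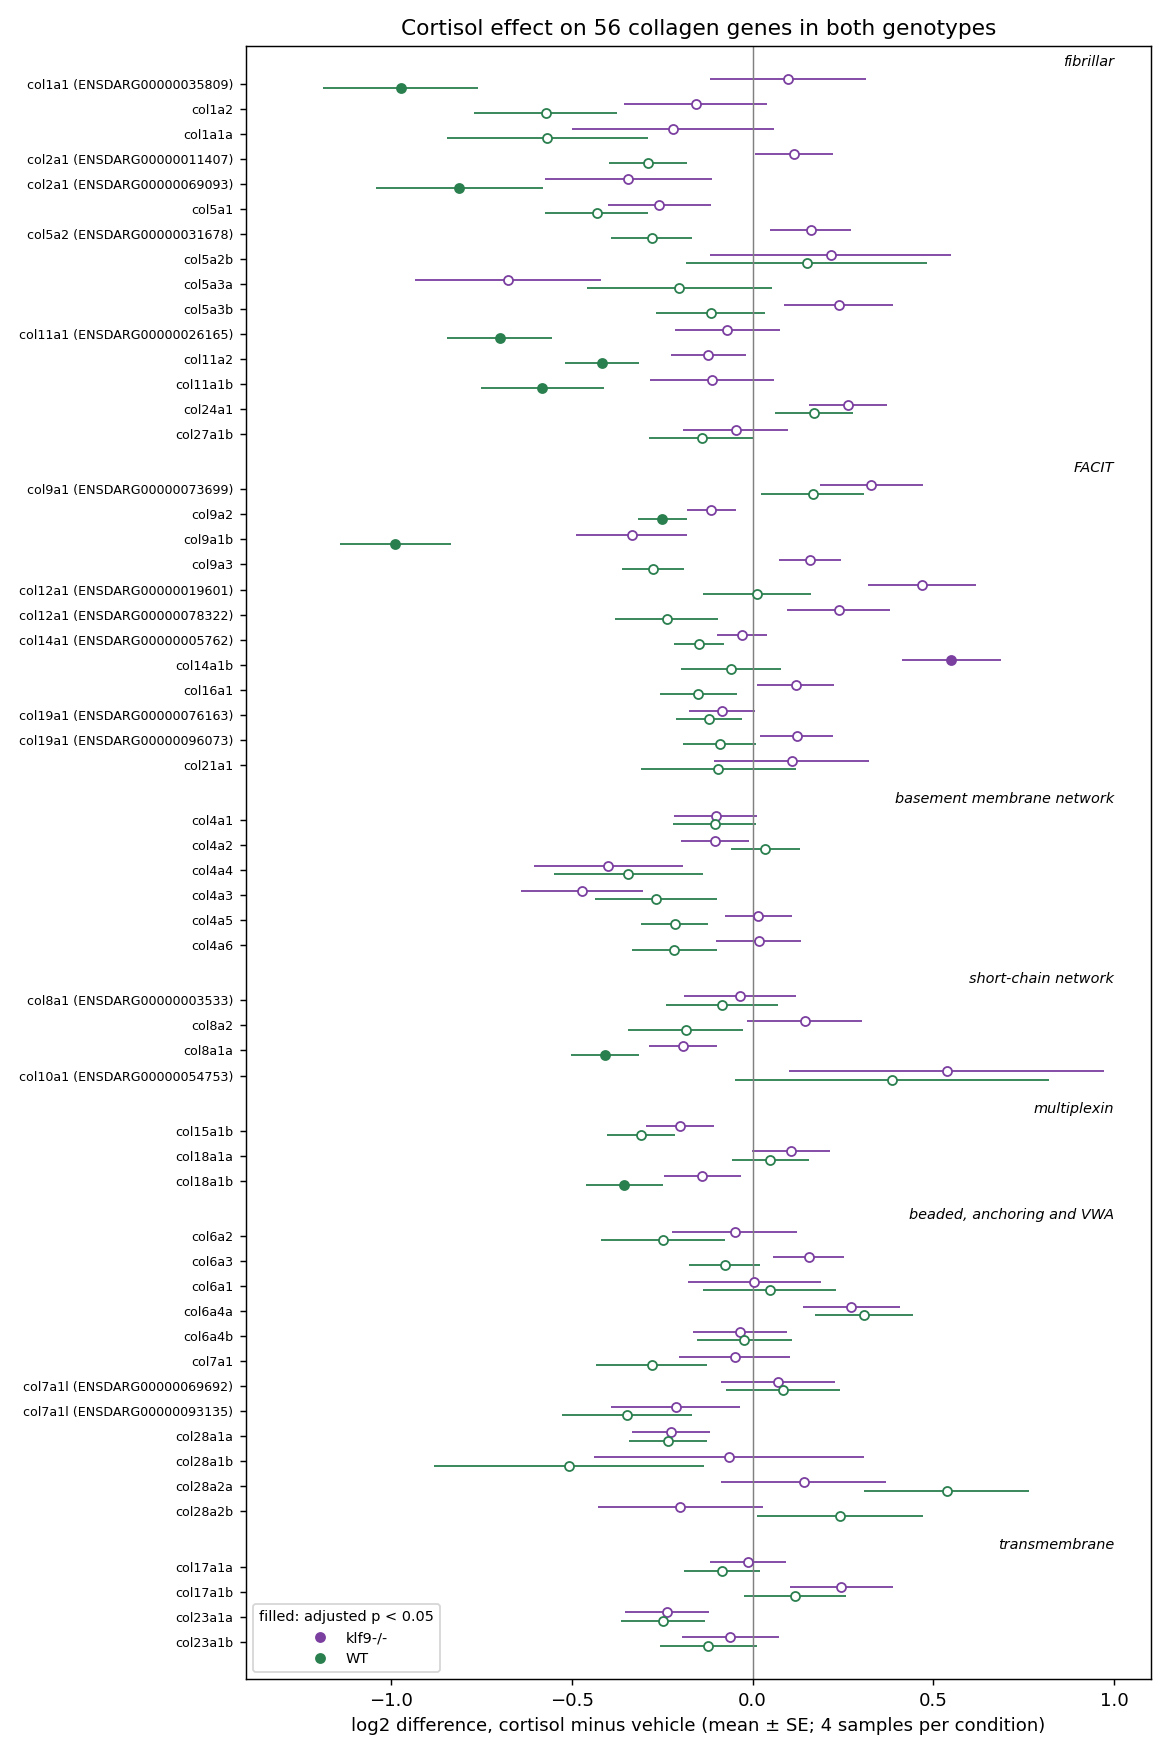
Log2 difference of cortisol minus vehicle (horizontal axis; points are estimates from 4 samples per condition and bars their SE) for the 56 collagen genes in *klf9*-/- and WT larvae, grouped by class. Filled points have an adjusted p under 0.05: 9 genes in WT larvae, all below 0, and *col14a1b* in *klf9*-/- larvae, at 0.55.

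Whether the cortisol effect depended on genotype was tested as the effect in *klf9*-/- larvae minus that in WT larvae. No collagen gene was called in either direction, and of all genes 0.0% were called above 0 and 0.167% below. Of the 56, 9 had an unadjusted p under 0.05, next to 1233 of all 21511 genes. The estimates were above 0 for 46 of 56 collagen genes, with a median of 0.17, against a median of 0.01 over all genes. From the day 2 samples alone, 39 of 56 were above 0 (median 0.16, against 0.01 over all genes). On that day 50 of the 56 genes were lower in cortisol-treated *klf9*-/- replicate 4 than in replicate 3. How far the day 2 count rests on replicate 3 was not tested. All 9 genes of types II, IX and XI were above 0 (median 0.43), and so were all 9 genes that cortisol lowered in WT larvae. Both sets were chosen on WT samples that enter this difference with the opposite sign, so nothing is read from their direction. The highest was *col1a1* (ENSDARG00000035809) at 1.07 ± 0.30 (adjusted p = 0.43), and the smallest unadjusted p was that of *col9a3*, with 4654, 5515, 4799 and 4128 normalized counts with cortisol and 4128, 4300, 4061 and 4538 with vehicle in *klf9*-/- larvae, and 3860, 3946, 3752 and 3752 with cortisol and 4128, 4958, 4958 and 4538 with vehicle in WT larvae (0.43 ± 0.12, adjusted p = 0.42). With cortisol, *col9a3* was higher in *klf9*-/- than in WT larvae in all 4 samples, and with vehicle it was not.

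Between genotypes with vehicle, no collagen gene was called, next to 0.218% of all genes called higher and 0.367% lower. The estimates were split evenly, 28 above 0 and 28 below. Of the 56, 8 had an unadjusted p under 0.05, next to 2757 of all 21511 genes. By day, none was called on day 2 or on day 1, next to 0.153% and 0.976% of all genes. The unadjusted p was under 0.05 for 7 and 4, next to 1897 and 3277 of all 21511 genes. With cortisol, 49 of 56 estimates were above 0 in *klf9*-/- against WT larvae (median 0.20, against 0.02 over all genes). Of the 56, 17 had an unadjusted p under 0.05, next to 2725 of all 21511 genes. By adjusted p, 1 was called higher and none lower, next to 0.618% and 1.46% of all genes. On day 2 alone, 48 of 56 were above 0 (median 0.18, against 0.00 over all genes). The 48 include *col4a3*, whose day 2 values with cortisol were 49 and 46 in both genotypes. On that day 50 of the 56 genes were lower in cortisol-treated *klf9*-/- replicate 4 than in replicate 3. The collagen sums of replicates 4 and 3 were 160733 and 232818, against 162976 to 174081 in the cortisol-treated WT samples. How far the day 2 count rests on replicate 3 was not tested. The comparison of genotypes with cortisol shares the cortisol-treated WT samples with that of cortisol against vehicle. The called gene was *col5a2* (ENSDARG00000031678), a chain of the type V collagen found in type I fibrils, with 6554, 6554, 6554 and 4540 normalized counts in cortisol-treated *klf9*-/- samples and 4802, 4802, 3561 and 4382 in cortisol-treated WT samples. Its groups overlapped only through the day 2 value of 4540. The difference was 0.46 ± 0.11 (adjusted p = 0.048), and with vehicle the values were 6817, 6366, 4302 and 4382 in *klf9*-/- larvae and 6196, 6817, 4382 and 4203 in WT larvae (0.02 ± 0.11).

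Among genes with cortisol values that did not overlap between genotypes, 5 of 56 were higher in *klf9*-/- larvae, as were 1.59% of all genes: *col7a1*, *col9a2*, *col9a3*, *col19a1* (ENSDARG00000076163) and *col23a1a*. *col7a1* had 680, 673, 590 and 530 normalized counts in cortisol-treated *klf9*-/- samples and 435, 477, 513 and 464 in cortisol-treated WT samples (0.38 ± 0.15, adjusted p = 0.29). *col19a1* (ENSDARG00000076163), a fibril-associated collagen, had 216, 216, 210 and 234 against 158, 156, 209 and 180 with cortisol (0.33 ± 0.09, adjusted p = 0.085) and 224, 195, 272 and 244 against 194, 189, 186 and 190 with vehicle (0.29 ± 0.09, adjusted p = 0.18). It was thus above WT in every *klf9*-/- sample under both treatments, without being called in either. By day, the genotype difference with cortisol was called for no collagen gene on day 2, next to 0.135% of all genes higher and 0.381% lower. The unadjusted p was under 0.05 for 9 collagen genes on day 2, next to 1715 of all 21511 genes. On day 1, 2 collagen genes were called, both higher, next to 1.16% of all genes higher and 1.57% lower. These were *col1a1* (ENSDARG00000035809, 0.91, adjusted p = 0.046) and *col19a1* (ENSDARG00000076163, 0.46).

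The call of *col14a1b* in *klf9*-/- larvae was lost without cortisol-treated *klf9*-/- replicate 1, 2 or 3, vehicle-treated *klf9*-/- replicate 1, 2 or 3, or vehicle-treated WT replicate 4, leaving 0 genes, and 2 genes were called without vehicle-treated WT replicate 1. The count of genes higher in *klf9*-/- than WT larvae with cortisol was 0 without any 1 of 13 samples, 3 without cortisol-treated *klf9*-/- replicate 4, 2 without vehicle-treated WT replicate 1, and still 1 without cortisol-treated WT replicate 4. With both day 1 cortisol-treated WT samples left out it was 0. *col27a1b* lies on the chromosome of *klf9* (chromosome 5 of GRCz12tu), with 773 genes between them, and was not called. It had 59, 57, 51 and 40 normalized counts in cortisol-treated *klf9*-/- samples and 38, 51, 34 and 35 in cortisol-treated WT samples (0.39 ± 0.15), and 57, 56, 52 and 47 in vehicle-treated *klf9*-/- samples against 40, 38, 51 and 44 in vehicle-treated WT samples (0.30 ± 0.15).

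Macrophage genes also differed between genotypes with cortisol, with 6 of 13 called lower and none higher in *klf9*-/- larvae (median -0.71), and MMP9 was lower by the same comparison (-1.42 ± 0.22). The folding list had 20 of 25 estimates above 0 and the crosslinking list 21 of 25, with medians of 0.15 and 0.17, but no gene of either was called. Of the basement membrane list, 1 of 25 was called higher, the laminin chain gene *lamc3* (0.41 ± 0.09).

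Preparation day gave the most called collagen genes, in a comparison of 8 with 8 samples, whereas cortisol and genotype were compared in 4 against 4. Day 2 samples were higher for 9 and lower for 20 of the 56, against 30.3% and 32.8% of all genes, so the collagen shares were 16.1% and 35.7%. The median was -0.13, next to -0.04 over all genes. The genes higher on day 2 were led by cartilage fibril genes, *col9a1b* (1.00 ± 0.11), *col2a1* (ENSDARG00000069093, 0.89 ± 0.16), *col11a1* (0.50 ± 0.10) and *col11a2* (0.37 ± 0.07), and by the type IV pair *col4a4* (0.43 ± 0.15) and *col4a3* (0.34 ± 0.12). These estimates are averages over the 4 conditions. For *col9a1b*, *col2a1* and *col11a1* the cortisol effect in WT larvae itself differed between days. In WT larvae with vehicle, this *col2a1* gene had 23442 and 23442 normalized counts on day 1 and 29419 and 26492 on day 2. With cortisol it had 8734 and 8356 on day 1 and 26492 and 23442 on day 2. Of the 9 genes lowered by cortisol in WT larvae, 4 were higher on day 2, 1 was lower and 4 were not called for day.

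The ranges by day show both directions. *col9a1b* had 6814 to 12084 normalized counts (median 9374) in the 8 day 2 samples and 2526 to 8350 (median 5054.5) in the 8 day 1 samples, and *col2a1* (ENSDARG00000069093) had 23442 to 37956 (median 27955.5) and 8356 to 23442 (median 17613). The days overlapped for *col9a1b* and met at 23442 for *col2a1*. In contrast, *col9a1* (ENSDARG00000073699) had 713 to 1092 (median 810.5) on day 2 and 1159 to 2214 (median 1670.5) on day 1, without overlap (-0.99 ± 0.10, adjusted p = 2.6e-06). The genes for type IX chains therefore moved in opposite directions between days, while *col9a2* (0.07 ± 0.05) and *col9a3* (-0.04 ± 0.06) were not called.

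The lower genes on day 2 were led by *col10a1* (ENSDARG00000054753, -1.27 ± 0.31), with 442 to 2644 normalized counts on day 2 and 1002 to 3368 on day 1, and by *col5a2b* (-1.15 ± 0.24), with 20 to 74 and 40 to 96. All 5 type VI genes were lower on day 2. *col6a4b* had 256 to 346 on day 2 and 410 to 554 on day 1 without overlap (-0.68 ± 0.09), *col6a4a* -0.66 ± 0.10, *col6a2* -0.55 ± 0.12, *col6a1* -0.49 ± 0.13 and *col6a3* -0.32 ± 0.07. Type VI filaments surround muscle fibres and tendon cells. *col17a1b* (-0.57 ± 0.10), *col21a1* (-0.70 ± 0.15) and *col28a2a* (-0.63 ± 0.16) were also lower, and *col17a1a*, the paralog of a called gene, was not called (-0.10 ± 0.07).

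Other lists followed the day more evenly. The folding list had 18 of 25 genes called lower and none higher on day 2 (median -0.41), crosslinking 13 lower and 3 higher of 25, degradation 13 lower and 1 higher of 16, other basement membrane genes 13 lower and 4 higher of 25, and receptors 10 lower and none higher of 14. Fibroblast and tendon genes were lower in 14 of 17, and chondrocyte genes lower in 9 and higher in 1 of 13, while neuron genes were higher in 8 of 9 and lower in none (median 1.07). The higher cartilage fibril genes thus moved against most chondrocyte genes, among them MATN1 (-1.03 ± 0.11), and with *acanb* (0.42 ± 0.12), the gene of the cartilage proteoglycan aggrecan. Sums of the 4 notochord genes were also higher on day 2 in every condition. With cortisol they were 3261 to 3574 on day 2 against 1944 to 2104 on day 1 in *klf9*-/- larvae. In WT larvae with cortisol they were 2697 to 2992 against 1665 to 1788. With vehicle they were 3276 to 3283 against 2648 to 2688 in *klf9*-/- and 3295 to 3773 against 2756 to 2896 in WT larvae. The part of these lists in the day result was not tested.

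Several collagen genes are neighbours on a chromosome, which allows a pair to be followed across samples. In GRCz12tu no protein-coding gene lies between *col4a1* and *col4a2* (chromosome 9), *col4a3* and *col4a4* (chromosome 15) and *col4a5* and *col4a6* (chromosome 7), whose paired chains assemble together in basement membranes, nor between *col9a2* and *col16a1* (chromosome 19), and 1 lies between *col6a1* and *col6a2* (chromosome 11). Across the 16 samples the ratio of *col4a2* to *col4a1* ranged from 0.835 to 1.13 while the genes themselves ranged 1.66-fold and 1.57-fold. The ratio of *col4a5* to *col4a6* ranged from 1.00 to 1.31, with ranges of 1.42-fold and 1.65-fold for the genes, and that of *col6a1* to *col6a2* from 0.720 to 1.11 with ranges of 2.14-fold and 2.21-fold for the genes. In these pairs the ratio thus ranged less than the levels. The spread of such ratios was not computed over gene pairs in general, so nothing particular to partner chains is read from it.

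The same held for *col4a3* to *col4a4*, whose ratio ranged from 1.14 to 2.22 (1.95-fold) at levels of 18 to 87 normalized counts, with ranges of 2.64-fold and 3.44-fold for the genes. The ratio of *col16a1* to *col9a2*, which belong to different collagen types, ranged from 0.131 to 0.223, or 1.70-fold, while the genes ranged 1.67-fold and 1.35-fold, with *col16a1* lower on day 2 (-0.35 ± 0.08) and *col9a2* not called. Ratios within a pair carry the gene lengths, so only their spread is read here.

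**Figure D4:**
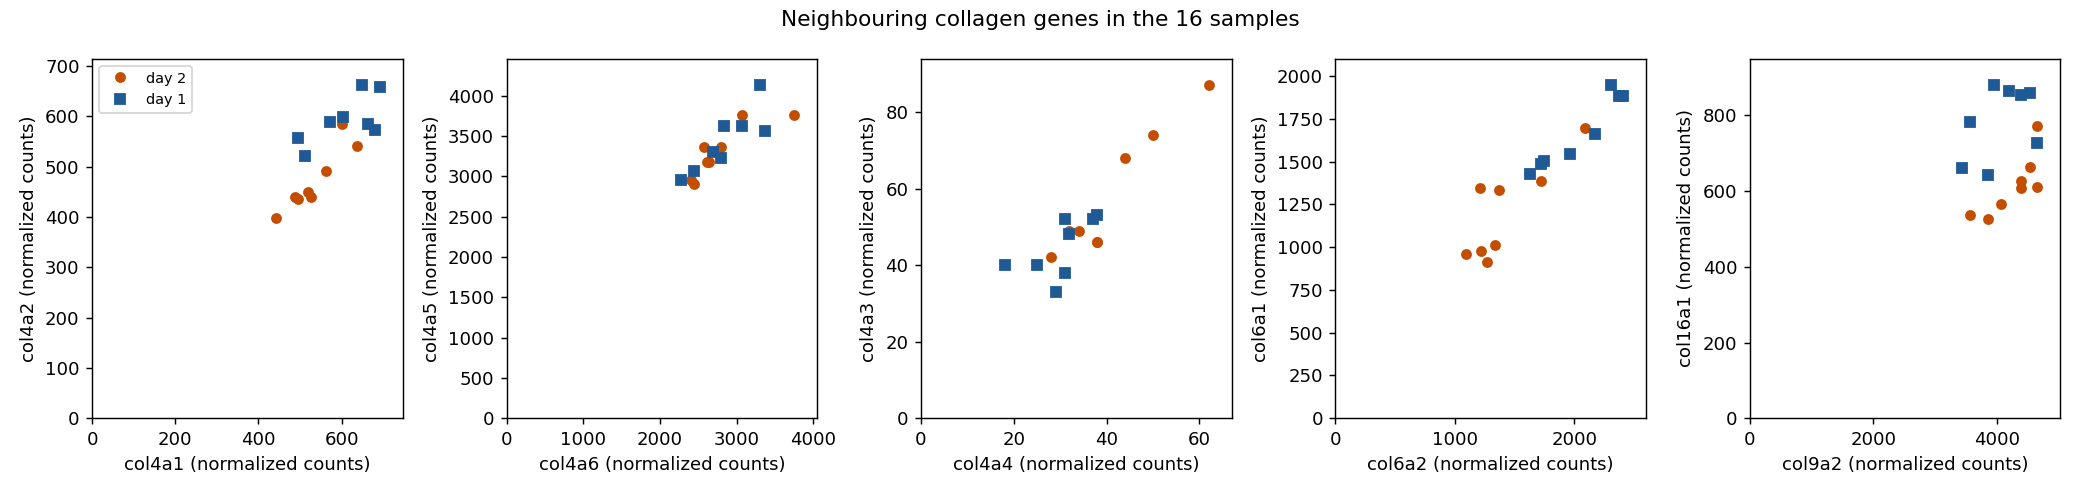
Normalized counts of 5 pairs of neighbouring collagen genes, with 1 gene on each axis (both from 0) and 1 point per sample (circles, day 2; squares, day 1; 16 samples). The type IV and VI partners lie along a line through most of their range. *col16a1* was mostly lower on day 2 (526 to 772) than on day 1 (643 to 880), and the days overlap.

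Summed over the 56 genes, collagen took 0.764% to 1.59% of all normalized counts across the 16 samples. Most of the sum came from a few genes. In vehicle-treated WT samples its mean was 200631, of which the 3 type I genes gave 85734 and the 9 genes of types II, IX and XI 72844. The sums thus largely restate those genes. The cortisol-treated WT samples all lay below the vehicle-treated WT samples, with sums of 162976 to 174081 on day 2 and 111949 to 114276 on day 1 against 190137 to 199098 on day 2 and 189859 to 223431 on day 1. The 2 cortisol-treated *klf9*-/- samples of day 2 differed from each other as much, with 232818 in replicate 3 and 160733 in replicate 4, and 50 of the 56 genes were lower in replicate 4. These 2 sums lay on either side of the day 2 vehicle sums of 171411 to 179599. On day 1 the *klf9*-/- sums were 142337 to 158522 with cortisol, below the 171017 to 189027 with vehicle. In all, 11 of the 56 collagen genes were called for cortisol or genotype over both days, 29 for preparation day, 7 for both, and 23 for neither. The share called for preparation day was 51.8%, next to 63.1% of all genes. For the other counts the share over all genes was not computed, so nothing particular to collagen genes is read from them.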

How the data were processed

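The values analysed were deposited log2 values. Per the labels and the study's methods, the authors trimmed reads with Trimmomatic 0.38, aligned them with STAR 2.6.1b to GRCz11, estimated gene counts with RSEM 1.3.0, normalized them with EDASeq (GC content within samples, full quantiles between samples), added 0.1 and took log2. All values were whole on the count scale (tolerance 1e-08), and depth is unknown. RSEM divides reads that match several genes, so near-identical paralogs are uncertain. Genes with a mean of at least 5 (21511 of 22994) were fitted in limma 3.58.1 (R 4.3.3, eBayes with trend) on condition plus preparation day, where the authors used DESeq2 1.24.0 on counts. By-day effects came from a mean for each condition and day in all 16 samples. On simulated data for cortisol against vehicle in WT (21511 genes), 76% of changes of 1 and 96% of changes of 2 on the log2 scale were recovered, with 6 false calls. The simulated noise was normal and independent between samples, and each change was the same on both days. Stepped values and cortisol effects that differ between days were not simulated, so these rates need not hold for the data.

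Members, gene lists and tests were chosen with earlier results of these data known. Symbols lack the paralog letter for 11 members, and neighbours come from RefSeq of GRCz12tu. Values in every sample are given for called genes (up to 6 per direction and comparison, by size) and for fixed representatives of the classes. Of the other members named, *col18a1b*, *col9a3*, *col19a1*, *col23a1a*, *col24a1*, *col15a1b*, *col16a1* and the further type IV, VI and XXVIII genes were chosen after their values were seen. Of muscle, osteoblast, liver, erythrocyte and basal epidermis genes, 1 of 12, 0 of 7, 1 of 6, 0 of 6 and 0 of 9 were called with cortisol in WT larvae over both days. Figures were drawn with Python 3.11.15, pandas 2.3.3, numpy 2.4.6 and matplotlib 3.10.9.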

Additional observations from a re-analysis of the deposited data

Results flagged for a closer look

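In 13 of 224 groups of 4 samples (56 genes in 4 conditions), 1 sample lay apart from the other 3 by Dixon's criterion. Chance alone gives this in about 1 of 20 groups of untied values from 1 population, whereas each group here spanned both days. For *col1a1* (ENSDARG00000035809), *col1a2*, *col1a1a* and *col5a2* (ENSDARG00000031678) the other 3 values were identical, so a gap of any size was flagged. In 5 of the 13 the sample was cortisol-treated *klf9*-/- replicate 4, and in each it was the lowest: *col4a5* with 2906 (others 3626, 3626 and 3754 normalized counts), *col5a2* (ENSDARG00000031678) with 4540 (others 6554), *col18a1a* with 1764 (others 2451 to 2614), *col18a1b* with 108 (others 154 to 163) and *col28a2a* with 124 (others 301 to 323). In the same condition, *col28a1b* was lowest in replicate 2 with 8 (others 13 and 14), *col28a2b* was highest in replicate 1 with 160 (others 74 and 80), and *col1a1* (ENSDARG00000035809) was highest in replicate 3 with 29419 (others 26492), which is 1 step of the scale. In vehicle-treated *klf9*-/- larvae, *col1a2* was highest in replicate 3 with 14050 (others 12088), *col1a1a* in replicate 2 with 37956 (others 26492), and *col14a1b* was lowest in replicate 3 with 797 (others 1086 to 1154). In WT larvae, *col5a3a* was lowest with cortisol in replicate 1 with 15 (others 25 to 27), and *col4a5* was highest with vehicle in replicate 2 with 4129 (others 3306 and 3368).

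The cortisol effect in WT larvae differed between days, as day 2 minus day 1 on the log2 scale, for 8 collagen genes by limma. It was above 0 for *col2a1* (ENSDARG00000069093, 1.29), *col1a2* (1.17), *col11a1b* (0.87), *col9a1b* (0.79), *col11a1* (0.66), *col6a4b* (0.66) and *col4a1* (0.62), and below 0 for *col7a1l* (ENSDARG00000069692, -0.81). Day, handling, collection order and replicate number cannot be told apart in this design.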

How the results depend on the processing

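Of the counts of called collagen genes, those for *klf9*-/- against WT larvae with vehicle, for the difference of cortisol effects and for day 2 against day 1 (8 to 12 higher and 19 to 24 lower when 1 sample was left out) kept within 1.5 times their value in every setting run. The 9 genes lower with cortisol in WT larvae became 5 without a variance trend, 0 without the preparation day, 2 with only the 8 samples compared, 18 with day 1 alone, 1 with day 2 alone and 0 with both day 1 cortisol-treated WT samples left out (chosen after seeing the data), and 1 to 11 when 1 sample was left out. The 0 genes higher became 1 with day 1 alone. In *klf9*-/- larvae, the 1 gene higher with cortisol became 0 without a variance trend, without the preparation day, with day 1 alone and with day 2 alone, and 3 with separate condition means on either day, with 0 to 2 when 1 sample was left out. The 0 lower became 1 with separate means and 1 with day 1 alone. With cortisol, the 1 gene higher in *klf9*-/- than in WT larvae became 0 with a mean of at least 75, with no filter on low values, without a variance trend, without the preparation day, with day 1 alone, with day 2 alone and without the day 1 cortisol-treated WT samples, 3 with separate means and 5 with only the 8 samples compared. Leaving out 1 sample gave 0 to 3 higher and 0 to 1 lower. For the difference between days of the cortisol effect in WT larvae, the 7 genes above 0 became 3 and the 1 below 0 became 0 without a variance trend, with 2 to 11 and 0 to 6 when 1 sample was left out. Where a setting did not itself remove samples or genes, the cause was not tested. No estimate changed sign while called.

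A replicate block in place of the preparation day gave 0 genes higher with cortisol in *klf9*-/- larvae and 0 higher in *klf9*-/- against WT larvae with cortisol, and moved no other count of collagen genes beyond 1.5 times. With it, *col2a1* (ENSDARG00000069093), *col11a1b* and *col18a1b* were no longer called lower with cortisol in WT larvae. Deviations of same-numbered samples from condition means correlated with a median r of 0.45 (24 pairs, -0.06 to 0.68) and those from means of condition and day with 0.00, so the numbers share no more than the day. Adding 10 before taking log2 and centring samples on their medians moved no count beyond 1.5 times. Depth is unknown, and genes with the fewest counts, such as *col28a1b* (6 to 26), are the least precise.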

Other observations

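In *klf9*-/- larvae with cortisol against vehicle, 20 of 25 folding genes (median 0.14), 20 of 25 crosslinking genes (median 0.19), 20 of 25 other basement membrane genes (median 0.14), 14 of 16 degradation genes (median 0.18) and 12 of 14 receptor genes (median 0.22) had estimates above 0. Of the collagen genes, 25 of 56 were above 0, and of all genes 50.8% were below 0 (median -0.01). These signs were counted without a test. Among the receptor genes, 2 were called higher by limma, both with the symbol ITGB1, which encodes the integrin chain shared by the collagen-binding integrins (0.55 ± 0.14 and 0.46 ± 0.12), and none was called lower. HSPG2, the basement membrane proteoglycan perlecan, was also higher (0.30 ± 0.08, adjusted p = 0.042), as were RECK, an inhibitor of matrix proteases (0.49 ± 0.12), and *twist1a*, a mesenchymal transcription factor (0.53 ± 0.13). None of these genes was called with cortisol in WT larvae, and no gene of the 5 was called for the difference between genotypes.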
